A study of Mus musculus with 18 samples.

Results

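Fibroblast growth factors (FGFs), their receptors and a set of ERK feedback and response genes were followed through the differentiation of mouse embryonic stem (ES) cells under forced expression of Dlx2. Members were taken by symbol: every Fgf gene named with a number, Fgfr1 to Fgfr4, Fgfrl1, Spry1 to Spry4, Spred1 to Spred3, Dusp6, Etv1, Etv4 and Etv5. They are 38 genes, of which 18 are secreted ligands, 4 intracellular FGFs, 5 receptors, 8 feedback inhibitors and 3 ETS transcription factors. The day-2 count table lists 36 of them among 26157 symbols (Fgf20 and Spry3 are not listed there). The table of days 8 and 16 and ES cells lists all 38 among 54114.

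All cells derived from Msx1-tdTomato mouse ES cells, which report the homeobox gene Msx1 and were kept in serum and LIF. At day 2, hanging-drop embryoid bodies (EBs) with inducible Dlx2 overexpression were set against EBs with inducible GFP overexpression. At days 8 and 16, EB cells of the inducible Dlx2 line, given 1 µg/ml doxycycline, were sorted into Msx1-positive and Msx1-negative fractions, so both fractions carry the Dlx2 transgene and no GFP control stands beside them. ES cells labelled WT and untreated complete the set of 7 groups, with 2 libraries each. The day-2 columns do not name doxycycline; the study describes both lines as overexpressing, so these columns were taken as doxycycline-treated. The labels do not say whether libraries of a group came from separate cultures, so p-values measure only the spread between libraries, which may be technical.

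Total counts ran from 26211608 to 41552818 per library at day 2 and from 53797597 to 107770730 in the other table. Levels are given as CPM, that is, relative to the library total, scaled with TMM factors. Each table was scaled on its own, so levels set side by side across the tables are described only and were not tested. Dlx2 itself was counted at 4340 and 4715 CPM in Dlx2 EBs, against 0.0811 and 0.0807 CPM in GFP EBs. It stood at 1136 and 1269 CPM in Msx1-positive and 269 and 272 CPM in Msx1-negative cells of day 8, and at 288 and 341 CPM in positive and 131 and 146 CPM in negative cells of day 16. The ES cell libraries held 219 and 222 CPM of Dlx2, far above the GFP EBs, which goes against their label as untreated WT cells. Comparisons with them are comparisons with the libraries labelled ES. Msx1, the sorted gene, stood at 40.9 and 46.8 CPM in positive and 1.90 and 1.02 CPM in negative cells of day 8, and at 73.7 and 81.6 CPM in positive and 0.818 and 0.752 CPM in negative cells of day 16.

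FGFs are secreted proteins that bind, together with heparan sulfate, to receptor tyrosine kinases and signal largely through RAS and ERK. ERK activity induces its own inhibitors, the Sprouty and Spred proteins and the phosphatase Dusp6, and the ETS factors Etv1, Etv4 and Etv5, so transcripts of these genes are widely used as readouts of the pathway. In pluripotent cells Fgf4 acting through Fgfr1 drives the exit from the naive state, and in the developing face and teeth FGFs pass between epithelium and neural-crest-derived mesenchyme.

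Genes are said to be higher, lower or called where the adjusted p was under 0.05. Every adjusted p-value is from edgeR's quasi-likelihood test with Benjamini-Hochberg adjustment over all genes tested. Changes are log2 fold changes ± SE with 2 libraries in each group. For a single gene an exact test of 2 libraries against 2 cannot go below p = 0.333, so calls use a variance estimate moderated over the whole table.

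Of the 36 members listed at day 2, 32 had enough counts to be tested, and 16 were higher and 10 lower with Dlx2. Calls were common among all genes of that comparison (67.2%, with 34.1% higher and 33% lower). The median log2 change was 0.25 over the tested members and 0.02 over all genes. Between the sorted fractions 35 members were tested. In Msx1-positive cells of day 8, 21 were higher and 6 lower, with 54.7% of all genes called (30.4% higher, 24.3% lower) and median log2 changes of 0.88 for members and 0.06 for all genes. At day 16 the counts were 20 and 6, with 62.1% of all genes called (31.1% higher, 31% lower) and medians of 0.94 and -0.02. With scaling by library size alone, which puts the median of all genes at 0.20 at day 2 and 0.22 at day 8, members split 17 to 9 at day 2, 22 to 4 at day 8 and 20 to 6 at day 16. Of all called genes 63.6% were then higher at day 2, against 50.8%, and 66.8% at day 8, against 55.6%.

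Of the 32 members tested in all 3 comparisons, 8 were higher in each of them: Fgf2, Fgf9, Fgf11, Fgf12, Fgfr1, Fgfrl1, Spred1 and Spry1. Fgf4 and Etv5 were lower in each. Another 7 were called in opposite directions at day 2 and in a sorted comparison: Etv1, Fgf3, Fgf15, Fgfr4, Spred2, Spred3 and Spry4. Taken singly, the comparisons had 34.1%, 30.4% and 31.1% of all genes higher and 33%, 24.3% and 31% lower. Shares of all genes over the 3 comparisons jointly are not given here. Calls of Fgf12, Fgfr1 and Spred3 at day 2 were lost when a library was left out. So were those of Fgf3, Fgf9, Fgf15 and Spred2 at day 16. Fgf6, Fgf14 and Fgf20 did not exceed 0.144 CPM in any library and were not tested, and Fgf7 and Fgf21 were untested at day 2 alone.

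**Figure D1:**
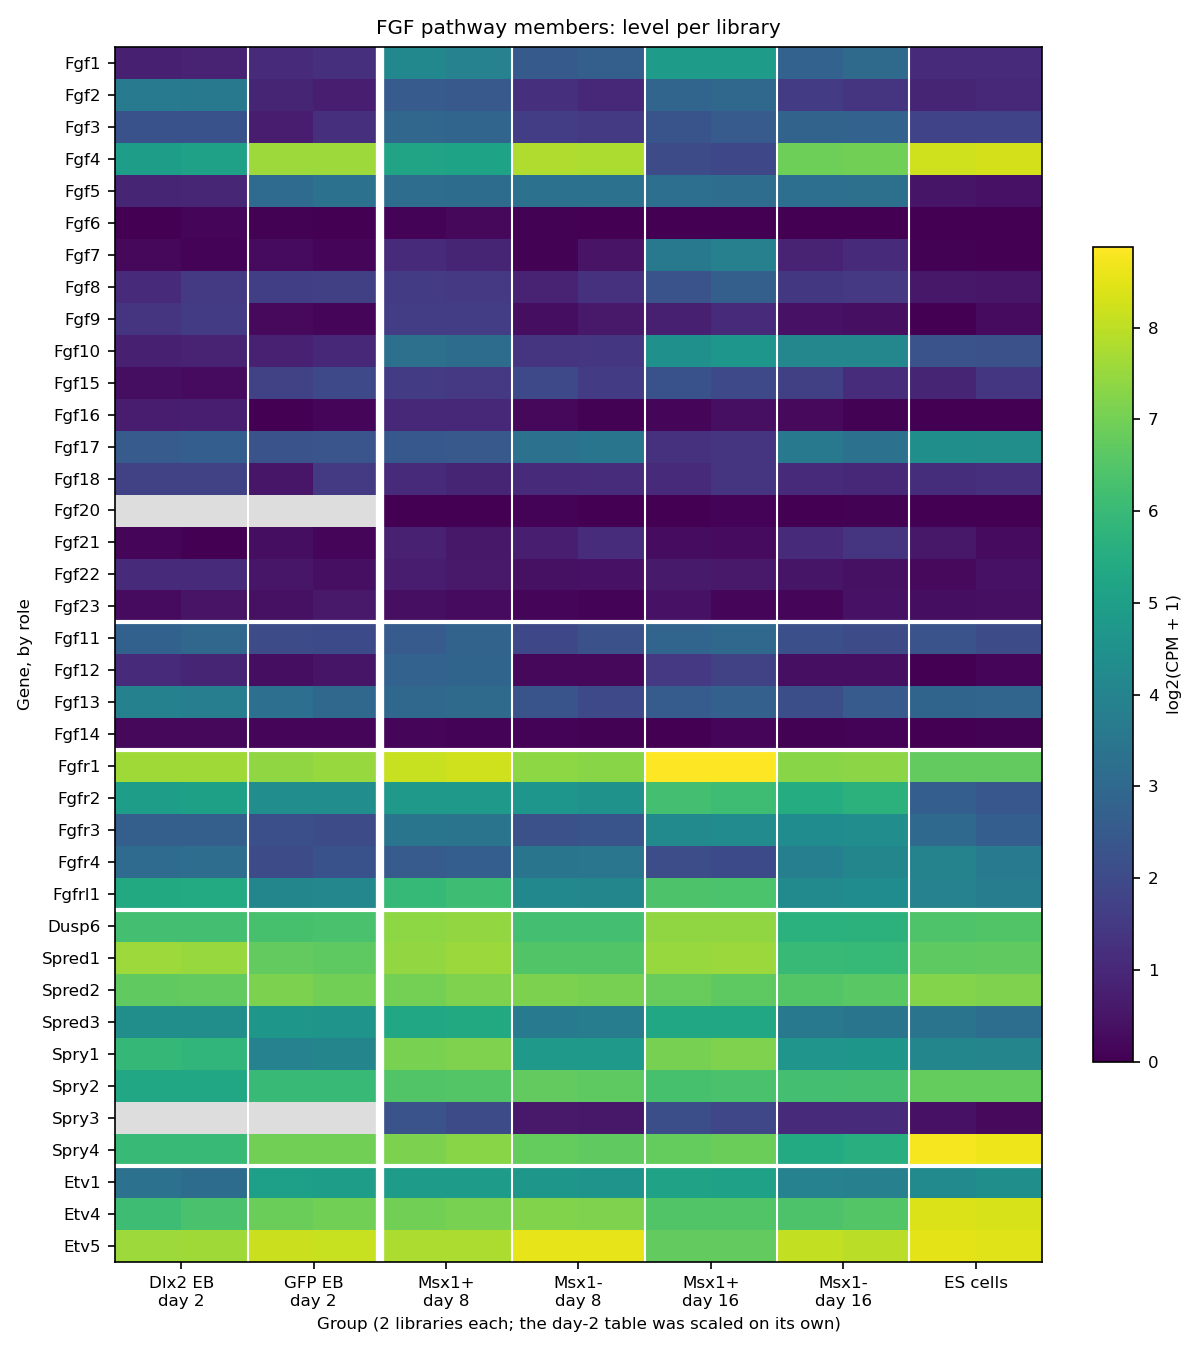
Level of the 38 members in each of the 14 libraries, as log2(CPM + 1), with genes in rows by role and libraries in columns by group (2 per group; grey, not listed in the day-2 table). Fgfr1, Etv5, Spred2, Etv4, Spred1, Dusp6, Spry4 and Spry2 average at least 38.5 CPM in every group that lists them, Fgf4 runs from 2.98 to 308 CPM between groups, and most other ligands are low; the day-2 table was scaled separately.

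Among the secreted ligands Fgf4, the FGF of pluripotent cells, was lower with Dlx2 and in both Msx1-positive fractions. Dlx2 EBs held 30.6 and 32.6 CPM and GFP EBs 191 and 190.3 CPM (log2 fold change -2.60 ± 0.06, adjusted p = 1.37e-20). At day 8 Fgf4 had 35.4 and 34.8 CPM in positive and 224 and 221 CPM in negative cells (log2 fold change -2.67 ± 0.06, adjusted p = 9.80e-14). At day 16 Fgf4 had 3.14 and 2.82 CPM in positive and 120.4 and 126 CPM in negative cells (log2 fold change -5.37 ± 0.08, adjusted p = 1.72e-15). Every library of the Dlx2 and positive groups was below those it was compared with, and ES cells stood above all sorted cells at 301 and 315 CPM. Per kilobase of exon, Fgf4 took 45.9% to 46.0% of the summed level of the secreted ligands in Dlx2 EBs and 83.2% to 86.3% in GFP EBs. It took 2.93% to 3.65% in positive and 63.0% to 64.9% in negative cells of day 16, and 84.8% to 85.6% in ES cells.

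Over all genes 33%, 24.3% and 31% were lower in Dlx2 EBs and in Msx1-positive cells of days 8 and 16. The 9 pluripotency markers moved with Fgf4: all 9 were lower in Dlx2 EBs and in both Msx1-positive fractions, and none was at 0. Their summed level was 1156 and 1195 CPM in Dlx2 and 5710 and 5801 CPM in GFP EBs. It was 1412 and 1406 CPM in positive and 5502 and 5609 CPM in negative cells of day 8, and 237 and 251 CPM in positive and 4028 and 3842 CPM in negative cells of day 16, next to 7427 and 7211 CPM in ES cells. Their part in the result was not tested. In bulk RNA, fewer cells of a type and less RNA per cell cannot be told apart.

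Fgf5, a marker of the epiblast after it leaves the naive state, was lower in Dlx2 EBs and was not called between the sorted fractions. It had 0.883 and 0.954 CPM with Dlx2 and 7.50 and 9.20 CPM with GFP (log2 fold change -3.18 ± 0.21, adjusted p = 8.05e-12). At day 8 Fgf5 had 7.96 and 7.86 CPM in positive and 8.89 and 9.24 CPM in negative cells (log2 fold change -0.20 ± 0.12, adjusted p = 0.168), and at day 16 it had 8.54 and 8.11 CPM in positive and 8.46 and 8.68 CPM in negative cells (log2 fold change -0.05 ± 0.12, adjusted p = 0.758). Both differences missed the threshold, and at day 16 the libraries overlapped. All sorted groups were above the ES libraries, which held 0.405 and 0.353 CPM (4.45 ± 0.19 on the log2 scale for positive and 4.49 ± 0.19 for negative cells of day 16, both called).

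Fgf17, a ligand of the Fgf8 subfamily, was lower in both Msx1-positive fractions. At day 8 Fgf17 had 4.44 and 4.57 CPM in positive and 8.94 and 9.81 CPM in negative cells (log2 fold change -1.06 ± 0.15, adjusted p = 2.32e-05). At day 16 Fgf17 had 1.43 and 1.51 CPM in positive and 10.9 and 8.85 CPM in negative cells (log2 fold change -2.75 ± 0.17, adjusted p = 2.00e-09). ES cells had the highest values, 20.3 and 19.9 CPM. In EBs it reached 4.92 and 5.35 CPM with Dlx2 and 3.81 and 4.12 CPM with GFP (log2 fold change 0.37 ± 0.17, adjusted p = 0.0635), which was not called. Fgf21, a metabolic hormone made in liver, was lower in positive cells of day 16, with 0.227 and 0.187 CPM in positive and 1.13 and 1.55 CPM in negative cells (log2 fold change -2.69 ± 0.44, adjusted p = 9.20e-05). At day 8 its libraries overlapped, with 0.768 and 0.488 CPM in positive and 0.697 and 1.16 CPM in negative cells (log2 fold change -0.58 ± 0.39, adjusted p = 0.235).

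Fgf2, a heparin-binding ligand widely used to keep mesenchymal and neural cells in growth, was higher with Dlx2 and in both positive fractions. It had 12.1 and 10.9 CPM with Dlx2 and 0.892 and 0.686 CPM with GFP (log2 fold change 3.86 ± 0.20, adjusted p = 1.31e-13). At day 8 Fgf2 had 4.86 and 4.64 CPM in positive and 1.35 and 1.02 CPM in negative cells (log2 fold change 2.00 ± 0.21, adjusted p = 1.03e-06). At day 16 Fgf2 had 6.46 and 6.97 CPM in positive and 1.90 and 1.52 CPM in negative cells (log2 fold change 1.97 ± 0.20, adjusted p = 6.35e-07). The groups did not overlap in any of these pairs. Exons of Nudt6 overlap Fgf2 on the other strand, and the library kit does not keep strand. Nudt6 itself was not called in these comparisons (at day 2 log2 fold change 0.56 ± 0.31, adjusted p = 0.117).

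Fgf1, which binds every FGF receptor, separated the sorted fractions but not the EBs. At day 8 Fgf1 had 16.7 and 14.4 CPM in positive and 4.76 and 5.41 CPM in negative cells (log2 fold change 1.61 ± 0.13, adjusted p = 4.93e-08). At day 16 Fgf1 had 28.6 and 28.9 CPM in positive and 5.95 and 7.34 CPM in negative cells (log2 fold change 2.11 ± 0.12, adjusted p = 1.36e-09). Positive libraries were above negative ones at both days. EBs and ES cells stayed near 1 CPM, with 0.702 and 0.838 CPM with Dlx2 and 1.10 and 1.29 CPM with GFP (log2 fold change -0.64 ± 0.37, adjusted p = 0.131) and 1.12 and 1.06 CPM in ES cells.

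The mesenchymal ligands Fgf7 and Fgf10 signal to the Fgfr2 isoform of epithelia. Both were higher in Msx1-positive cells and reached their highest levels at day 16. At day 8 Fgf7 had 1.06 and 0.872 CPM in positive and 0.0324 and 0.370 CPM in negative cells (log2 fold change 2.31 ± 0.54, adjusted p = 0.00402). That value rests on which negative library is kept: it was log2 1.34, adjusted p = 0.00661 without the first and log2 4.78, adjusted p = 6.96e-06 without the second. At day 16 Fgf7 had 11.2 and 13.6 CPM in positive and 0.818 and 1.13 CPM in negative cells (log2 fold change 3.66 ± 0.39, adjusted p = 1.05e-05), while both ES libraries together held 2 counts. At day 8 Fgf10 had 8.61 and 7.73 CPM in positive and 1.54 and 1.64 CPM in negative cells (log2 fold change 2.36 ± 0.13, adjusted p = 1.36e-09). At day 16 Fgf10 had 21.1 and 24.3 CPM in positive and 16.2 and 16.1 CPM in negative cells (log2 fold change 0.49 ± 0.11, adjusted p = 0.00110), so the negative cells lay much closer to the positive ones. In EBs the Fgf10 libraries overlapped, with 0.725 and 0.867 CPM with Dlx2 and 0.771 and 1.01 CPM with GFP (log2 fold change -0.17 ± 0.40, adjusted p = 0.726). Fgf7 was at or below 0.203 CPM there and was not tested.

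Fgf8 and Fgf9, ligands best known from the epithelium of the arches and tooth germs, were low throughout. Fgf9 had 1.52 and 1.91 CPM with Dlx2 and 0.162 and 0.121 CPM with GFP (log2 fold change 3.55 ± 0.48, adjusted p = 9.96e-07). At day 8 Fgf9 had 2.09 and 2.08 CPM in positive and 0.259 and 0.517 CPM in negative cells (log2 fold change 2.43 ± 0.38, adjusted p = 6.55e-05). At day 16 Fgf9 had 0.713 and 1.12 CPM in positive and 0.343 and 0.294 CPM in negative cells (log2 fold change 1.52 ± 0.40, adjusted p = 0.00412). Dlx2 EB and positive libraries were above the others each time, but the day-16 call was lost without the second positive library (log2 1.15, adjusted p = 0.0505). Fgf8 was not called in EBs, with 1.07 and 1.85 CPM with Dlx2 and 2.11 and 2.22 CPM with GFP (log2 fold change -0.59 ± 0.30, adjusted p = 0.0850). It was called lower there without the second Dlx2 library (log2 -1.02, adjusted p = 0.0404). At day 8 Fgf8 had 1.94 and 1.79 CPM in positive and 0.810 and 1.40 CPM in negative cells (log2 fold change 0.76 ± 0.28, adjusted p = 0.0355), a call that was lost without the first negative library (log2 0.37, adjusted p = 0.356), without either positive library and in DESeq2 (log2 0.70, adjusted p = 0.0689). At day 16 Fgf8 had 3.79 and 5.50 CPM in positive and 1.73 and 1.78 CPM in negative cells (log2 fold change 1.40 ± 0.27, adjusted p = 0.000365).

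Fgf3, Fgf4 and Fgf15 lie side by side on chromosome 7 (GRCm38, 144838083 to 144844436, 144847367 to 144865243 and 144896531 to 144900953, all on the plus strand) and did not move together. Fgf3, a ligand of the inner ear and tooth mesenchyme, had 3.72 and 3.73 CPM with Dlx2 and 0.608 and 1.29 CPM with GFP (log2 fold change 1.97 ± 0.28, adjusted p = 2.26e-06). Without the second GFP library its EB difference was log2 2.59, adjusted p = 4.97e-13. It was higher in positive cells at day 8, with 6.55 and 6.41 CPM in positive and 2.03 and 1.85 CPM in negative cells (log2 fold change 1.74 ± 0.17, adjusted p = 5.68e-07), and lower at day 16, with 3.95 and 4.80 CPM in positive and 6.17 and 5.92 CPM in negative cells (log2 fold change -0.47 ± 0.16, adjusted p = 0.0208). The day-16 call was lost without the first positive library (log2 -0.33, adjusted p = 0.167) and without either negative library. Fgf15, the mouse counterpart of human FGF19, had 0.249 and 0.202 CPM with Dlx2 and 2.31 and 2.87 CPM with GFP (log2 fold change -3.48 ± 0.38, adjusted p = 4.35e-08). At day 8 Fgf15 had 2.00 and 1.78 CPM in positive and 2.90 and 2.00 CPM in negative cells (log2 fold change -0.38 ± 0.29, adjusted p = 0.289), and its libraries overlapped. At day 16 Fgf15 had 3.66 and 2.87 CPM in positive and 2.19 and 1.18 CPM in negative cells (log2 fold change 0.95 ± 0.29, adjusted p = 0.0115). That call was lost without the first positive (log2 0.77, adjusted p = 0.0883) or the second negative library (log2 0.57, adjusted p = 0.137). Its exons overlap those of Gm26793 on the other strand, which averaged 0.300 CPM in positive and 0 CPM in negative cells of day 16.

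The remaining secreted ligands were low. Fgf16 had 0.612 and 0.665 CPM with Dlx2 and 2 counts in both GFP libraries together, a ratio of 15.7 (95% exact counting interval 4.12 to 133, counting error only). Both counts lay in the second GFP library, and without the first the difference was log2 2.91, adjusted p = 0.00570. At day 8 Fgf16 had 1.03 and 1.05 CPM in positive and 0.146 and 0.0370 CPM in negative cells (log2 fold change 3.45 ± 0.71, adjusted p = 0.000769), a difference of log2 4.72 without the first negative library and 2.79 without the second. At day 16 its libraries overlapped, with 0.0972 and 0.281 CPM in positive and 0.164 and 0.0327 CPM in negative cells (log2 fold change 0.94 ± 0.78, adjusted p = 0.318).

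Fgf18 had 2.36 and 2.28 CPM with Dlx2 and 0.446 and 1.82 CPM with GFP (log2 fold change 1.03 ± 0.38, adjusted p = 0.0216). The GFP libraries differed by more than the groups did, and the call was lost without the first GFP library (log2 0.34, adjusted p = 0.333; without the second it was log2 2.36, adjusted p = 1.62e-07), without either Dlx2 library and in DESeq2 (log2 1.04, adjusted p = 0.109). Fgf22 had 1.07 and 1.07 CPM with Dlx2 and 0.446 and 0.283 CPM with GFP (log2 fold change 1.54 ± 0.45, adjusted p = 0.00475). It too was lost without the first (log2 1.54, adjusted p = 0.0584) or the second Dlx2 library (log2 1.54, adjusted p = 0.0509) and in DESeq2 (log2 1.55, adjusted p = 0.0606). Between the sorted fractions Fgf18 ran from 0.872 to 1.53 CPM and Fgf22 from 0.308 to 0.586 CPM, and neither was called. Fgf23, a hormone of bone, ran from 0.0739 to 0.525 CPM over all libraries with no call in these comparisons.

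**Figure D2:**
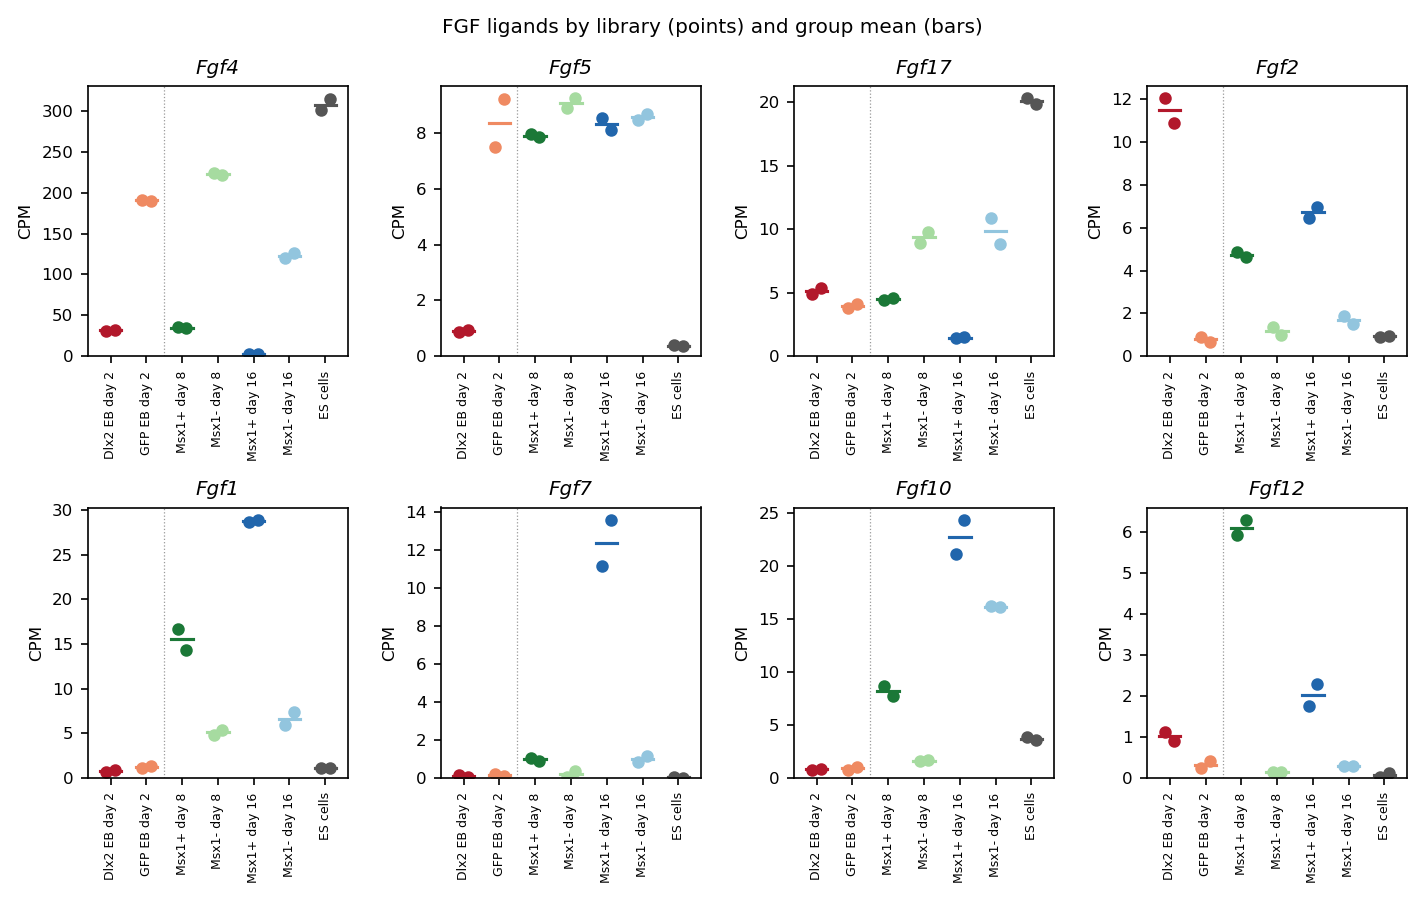
CPM of 8 FGF genes in each library (points) with the group mean (bars), groups on the x axis, and a dotted line between the separately scaled tables. Fgf4 is high in ES cells, GFP EBs and Msx1-negative cells, Fgf2 in Dlx2 EBs, Fgf1 and Fgf7 in Msx1-positive cells of day 16, where Fgf7 reached 11.2 and 13.6 CPM, and Fgf12 in Msx1-positive cells of day 8.

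The intracellular FGFs are not secreted and bind voltage-gated sodium channels. All 3 tested genes were higher with Dlx2 and in Msx1-positive cells of day 8, beside 34.1% and 30.4% of all genes. Fgf12 had the largest log2 difference of the tested members at day 8, with 5.93 and 6.30 CPM in positive and 0.130 and 0.148 CPM in negative cells (log2 fold change 5.45 ± 0.30, adjusted p = 1.10e-09). The size of that difference rests on 8 counts in each negative library. At day 16 Fgf12 had 1.75 and 2.29 CPM in positive and 0.294 and 0.294 CPM in negative cells (log2 fold change 2.77 ± 0.28, adjusted p = 5.05e-07), and the groups stayed apart. In EBs it had 1.13 and 0.896 CPM with Dlx2 and 0.243 and 0.404 CPM with GFP (log2 fold change 1.65 ± 0.47, adjusted p = 0.00425), a call lost without the first Dlx2 library (log2 1.46, adjusted p = 0.106) and in DESeq2 (log2 1.65, adjusted p = 0.0557).

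Fgf11 was higher in the same comparisons by smaller steps, with 5.71 and 6.65 CPM with Dlx2 and 3.04 and 2.99 CPM with GFP (log2 fold change 1.03 ± 0.18, adjusted p = 2.46e-05). At day 8 Fgf11 had 4.90 and 6.09 CPM in positive and 2.77 and 3.55 CPM in negative cells (log2 fold change 0.80 ± 0.18, adjusted p = 0.00149). At day 16 Fgf11 had 6.43 and 6.76 CPM in positive and 3.50 and 3.19 CPM in negative cells (log2 fold change 0.98 ± 0.18, adjusted p = 0.000248). No library of either group overlapped the other in these pairs. Fgf13 had 13.8 and 12.9 CPM with Dlx2 and 8.44 and 6.78 CPM with GFP (log2 fold change 0.81 ± 0.13, adjusted p = 8.01e-06). At day 8 Fgf13 had 6.83 and 7.45 CPM in positive and 3.94 and 2.92 CPM in negative cells (log2 fold change 1.05 ± 0.20, adjusted p = 0.000345). At day 16 Fgf13 had 4.96 and 5.61 CPM in positive and 3.37 and 4.81 CPM in negative cells (log2 fold change 0.37 ± 0.20, adjusted p = 0.122) and was not called.

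All 5 receptor genes were higher with Dlx2 at day 2, beside 34.1% of all genes. Fgfr1, the main receptor of ES cells and of mesenchyme, had the smallest difference there, with 194 and 192 CPM with Dlx2 and 169 and 181 CPM with GFP (log2 fold change 0.14 ± 0.05, adjusted p = 0.0175). This call was lost without the first GFP library (log2 0.07, adjusted p = 0.294) and without either Dlx2 library. The sorted fractions stood further apart. At day 8 Fgfr1 had 281 and 304 CPM in positive and 163 and 155 CPM in negative cells (log2 fold change 0.88 ± 0.06, adjusted p = 7.75e-09). At day 16 Fgfr1 had 469 and 464 CPM in positive and 156 and 159.8 CPM in negative cells (log2 fold change 1.56 ± 0.06, adjusted p = 1.05e-11). ES cells stood below all sorted cells, at 107 and 105 CPM.

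Fgfrl1, a receptor that lacks the kinase domain and is needed for skeletal and diaphragm development in mice, had 40.6 and 41.6 CPM with Dlx2 and 15.9 and 16.2 CPM with GFP (log2 fold change 1.36 ± 0.08, adjusted p = 1.64e-12). At day 8 Fgfrl1 had 61.3 and 68.2 CPM in positive and 16.8 and 15.7 CPM in negative cells (log2 fold change 1.99 ± 0.08, adjusted p = 1.95e-11). At day 16 Fgfrl1 had 84.0 and 82.0 CPM in positive and 17.9 and 19.1 CPM in negative cells (log2 fold change 2.17 ± 0.08, adjusted p = 4.98e-12). GFP EBs, Msx1-negative cells and ES cells all lay between 12.3 and 19.1 CPM, and every Dlx2 EB or Msx1-positive library was at 40.6 CPM or more.

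Fgfr4, a receptor best known from liver and muscle progenitors, was higher in Dlx2 EBs, with 7.68 and 8.06 CPM with Dlx2 and 3.08 and 3.71 CPM with GFP (log2 fold change 1.21 ± 0.16, adjusted p = 1.03e-06). It was lower in both Msx1-positive fractions. At day 8 Fgfr4 had 4.87 and 5.23 CPM in positive and 9.95 and 10.3 CPM in negative cells (fold change 0.499 with an SE of 0.13 on the log2 scale, adjusted p = 1.27e-05), and at day 16 it had 3.32 and 2.95 CPM in positive and 13.4 and 15.9 CPM in negative cells (log2 fold change -2.23 ± 0.14, adjusted p = 3.08e-09). The 8 endoderm markers summed to 129 and 130 CPM in positive and 584 and 609.5 CPM in negative cells of day 16. Of them 6 were lower in positive cells, beside 31% of all genes, and none was at 0 in these libraries. ES cells held 14.85 and 11.9 CPM of Fgfr4, with endoderm sums of only 4.11 and 3.92 CPM. The part of these markers in the result was not tested.

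Fgfr3, a receptor of cartilage and neural progenitors, had 5.41 and 5.43 CPM with Dlx2 and 3.45 and 3.19 CPM with GFP (log2 fold change 0.71 ± 0.18, adjusted p = 0.00119). It was higher in positive cells of day 8, with 9.84 and 9.71 CPM in positive and 3.55 and 3.90 CPM in negative cells (log2 fold change 1.39 ± 0.11, adjusted p = 5.17e-08). At day 16 the fractions stood close, with 17.4 and 18.6 CPM in positive and 19.1 and 19.5 CPM in negative cells (log2 fold change -0.11 ± 0.10, adjusted p = 0.371). Fgfr2 was higher with Dlx2 (log2 fold change 0.67 ± 0.08, adjusted p = 2.72e-07) and in positive cells of day 16 (log2 fold change 0.57 ± 0.08, adjusted p = 2.17e-05) but was not called at day 8 (log2 fold change 0.18 ± 0.08, adjusted p = 0.0798). Its group means ran from 4.76 CPM in ES cells to 70.7 CPM in positive cells of day 16. The annotation gives Fgfr2 exons shared on the same strand with Ctbp2, a corepressor gene that was lower in these comparisons (at day 2 log2 fold change -1.22 ± 0.05, adjusted p = 6.64e-16), so the counts of Fgfr2 are uncertain.

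Between genes, levels were compared per kilobase of annotated exon. The receptor shares include Fgfr2, whose counts are uncertain and whose exon length takes in the exons shared with Ctbp2. Among Fgfr1 to Fgfr4, Fgfr1 took 76.1% to 77.1% of the summed CPM per kilobase in Dlx2 EBs, against 84.1% to 84.5% in GFP EBs. Its share was 84.2% to 85.2% in positive and 73.6% to 74.5% in negative cells of day 8, 81.9% to 82.5% in positive and 57.1% to 59.5% in negative cells of day 16, and 65.6% to 70.2% in ES cells. The lower and the higher library are given, and the groups of each comparison (Dlx2 with GFP EBs, positive with negative cells of 1 day, sorted with ES cells) did not overlap. Fgfr4 took 1.46% to 1.62% of that sum in positive and 14.3% to 15.8% in negative cells of day 16, and 22.2% to 25.3% in ES cells.

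Among the feedback inhibitors Spry1, a Sprouty inhibitor of RAS-ERK signalling, was higher in all 3 comparisons. It had 59.1 and 56.9 CPM with Dlx2 and 14.1 and 15.5 CPM with GFP (log2 fold change 1.97 ± 0.08, adjusted p = 2.09e-15). At day 8 Spry1 had 135 and 143 CPM in positive and 26.1 and 26.4 CPM in negative cells (log2 fold change 2.41 ± 0.07, adjusted p = 6.02e-13). At day 16 Spry1 had 131 and 143 CPM in positive and 24.0 and 24.9 CPM in negative cells (log2 fold change 2.48 ± 0.07, adjusted p = 2.76e-13). Every Dlx2 EB and Msx1-positive library was at 56.9 CPM or more, and no other library exceeded 26.4 CPM, ES cells included at 16.0 and 15.3 CPM. Spry1 (chromosome 3, 37639947 to 37644598) lies on the same chromosome and strand as Fgf2 (37348346 to 37410108). Both genes were higher in all 3 comparisons, and a link between them was not tested.

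The other Sprouty genes moved differently. Spry4 was lower in Dlx2 EBs, with 63.7 and 64.3 CPM with Dlx2 and 127 and 127 CPM with GFP (log2 fold change -0.98 ± 0.05, adjusted p = 1.62e-13), and higher in both positive fractions. At day 8 Spry4 had 139 and 158 CPM in positive and 109.7 and 103 CPM in negative cells (log2 fold change 0.48 ± 0.07, adjusted p = 5.43e-05). At day 16 Spry4 had 109 and 118 CPM in positive and 42.0 and 46.0 CPM in negative cells (log2 fold change 1.37 ± 0.08, adjusted p = 7.73e-10). ES cells held more Spry4 than any other group, 434 and 404 CPM. Spry2 was lower with Dlx2 (log2 fold change -0.73 ± 0.07, adjusted p = 2.70e-09) and in positive cells of day 8 (log2 fold change -0.23 ± 0.06, adjusted p = 0.00337) and was not called at day 16 (log2 fold change 0.07 ± 0.06, adjusted p = 0.275). Its group means ran from 38.5 CPM in Dlx2 EBs to 108 CPM in ES cells, and the day-8 difference was not called with scaling by library size alone (log2 -0.07, adjusted p = 0.291). Spry3, not listed at day 2, was higher in both positive fractions from a low level. At day 8 Spry3 had 3.81 and 3.06 CPM in positive and 0.535 and 0.480 CPM in negative cells (log2 fold change 2.75 ± 0.27, adjusted p = 4.81e-07), and at day 16 it had 3.40 and 2.68 CPM in positive and 1.13 and 1.13 CPM in negative cells (log2 fold change 1.43 ± 0.24, adjusted p = 0.000127).

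Dusp6, a phosphatase that inactivates ERK, was not called in EBs, with 73.8 and 72.9 CPM with Dlx2 and 77.6 and 79.9 CPM with GFP (log2 fold change -0.10 ± 0.06, adjusted p = 0.121). It was higher in both positive fractions. At day 8 Dusp6 had 163 and 173 CPM in positive and 74.3 and 73.8 CPM in negative cells (log2 fold change 1.18 ± 0.06, adjusted p = 1.86e-10). At day 16 Dusp6 had 168 and 169 CPM in positive and 49.6 and 50.8 CPM in negative cells (log2 fold change 1.75 ± 0.06, adjusted p = 2.02e-12). ES cells held 84.4 and 87.3 CPM, between the sorted fractions.

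Spred proteins bind neurofibromin and restrain RAS. Spred1 was higher in all 3 comparisons, with 189 and 181 CPM with Dlx2 and 107 and 101 CPM with GFP (log2 fold change 0.83 ± 0.05, adjusted p = 2.79e-12). At day 8 Spred1 had 171 and 185 CPM in positive and 86.9 and 86.5 CPM in negative cells (log2 fold change 1.04 ± 0.06, adjusted p = 1.16e-09), and at day 16 it had 179.7 and 184 CPM in positive and 63.7 and 61.4 CPM in negative cells (log2 fold change 1.54 ± 0.06, adjusted p = 1.20e-11). The groups did not overlap. Spred3 was higher in both positive fractions and slightly lower with Dlx2. At day 8 Spred3 had 37.9 and 40.8 CPM in positive and 11.8 and 12.5 CPM in negative cells (log2 fold change 1.70 ± 0.09, adjusted p = 3.56e-10), and at day 16 it had 39.0 and 39.1 CPM in positive and 11.0 and 9.84 CPM in negative cells (log2 fold change 1.90 ± 0.09, adjusted p = 7.67e-11). In EBs it had 19.8 and 19.9 CPM with Dlx2 and 24.9 and 23.1 CPM with GFP (log2 fold change -0.27 ± 0.09, adjusted p = 0.00858). The EB call was lost without the first (log2 -0.27, adjusted p = 0.0585) or second Dlx2 library (log2 -0.27, adjusted p = 0.0512), in DESeq2 (log2 -0.27, adjusted p = 0.0693) and with scaling by library size alone (log2 -0.10, adjusted p = 0.334).

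Exons of Ggn overlap Spred3 on the other strand. Ggn was also higher in positive cells, from a much lower level of 2.30 CPM in positive and 0.835 CPM in negative cells of day 8 (log2 fold change 1.46 ± 0.32, adjusted p = 0.00144). Spred2 varied little, with group means from 93.5 to 146 CPM. It was lower with Dlx2 (log2 fold change -0.31 ± 0.05, adjusted p = 2.37e-05). Its day-16 call in positive cells (log2 fold change 0.20 ± 0.07, adjusted p = 0.0254) was lost without the first positive (log2 0.12, adjusted p = 0.215) or the first negative library (log2 0.13, adjusted p = 0.254).

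The 3 ETS factors, transcription factors induced by ERK signalling, were all lower with Dlx2, beside 33% of all genes. Etv1 had the largest of these differences, with 8.97 and 7.86 CPM with Dlx2 and 31.2 and 29.6 CPM with GFP (log2 fold change -1.85 ± 0.10, adjusted p = 1.65e-13). In sorted cells it was higher in the positive fraction. At day 8 Etv1 had 28.3 and 28.6 CPM in positive and 24.7 and 23.2 CPM in negative cells (log2 fold change 0.25 ± 0.08, adjusted p = 0.0122), a call lost without the second positive (log2 0.24, adjusted p = 0.0533) or second negative library (log2 0.17, adjusted p = 0.181) and in DESeq2 (log2 0.19, adjusted p = 0.0880). At day 16 Etv1 had 33.6 and 33.2 CPM in positive and 14.1 and 13.6 CPM in negative cells (log2 fold change 1.27 ± 0.08, adjusted p = 2.41e-09), with the groups well apart.

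Etv5 was lower in all 3 comparisons. It had 189.6 and 193 CPM with Dlx2 and 288 and 280.2 CPM with GFP (log2 fold change -0.57 ± 0.05, adjusted p = 4.43e-10). At day 8 Etv5 had 220.4 and 222 CPM in positive and 372 and 378 CPM in negative cells (log2 fold change -0.76 ± 0.05, adjusted p = 1.91e-08). At day 16 Etv5 had 106 and 106 CPM in positive and 266 and 249 CPM in negative cells (log2 fold change -1.29 ± 0.06, adjusted p = 4.45e-11). Etv4 was lower with Dlx2 (log2 fold change -0.73 ± 0.06, adjusted p = 8.82e-10), and its group means ran from 73.6 CPM in Dlx2 EBs to 329 CPM in ES cells. Between fractions Etv4 was called lower in positive cells of day 8 (log2 fold change -0.15 ± 0.06, adjusted p = 0.0434) and not at day 16 (log2 fold change 0.02 ± 0.06, adjusted p = 0.830). Its day-8 call was lost without the first positive (log2 -0.10, adjusted p = 0.275) or either negative library (log2 -0.17, adjusted p = 0.124 and log2 -0.20, adjusted p = 0.0761). With scaling by library size alone its sign turned (log2 0.0017, adjusted p = 0.984).

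By role, 7 of 8 feedback inhibitors were higher and none lower in positive cells of day 16, where they summed to 820.2 and 837 CPM in positive and 355 and 366 CPM in negative cells. Of all genes tested there 31.1% were higher and 31% lower, and the Spred2 call was lost without the first positive or the first negative library. The 3 ETS factors gave 1 higher and 1 lower gene there and summed to 227 and 226 CPM in positive and 363 and 352 CPM in negative cells. In positive cells of day 8 the inhibitors gave 6 higher and 1 lower of 8, and the ETS factors 1 higher and 2 lower of 3. Over all genes 30.4% were higher and 24.3% lower at that day. At day 2 the inhibitors gave 2 higher and 4 lower of 7, beside 34.1% higher and 33% lower over all genes. They overlapped in sum, with 548 and 540.1 CPM with Dlx2 and 552 and 535 CPM with GFP. The ETS factors summed to 267 and 280.1 CPM with Dlx2 and 435 and 437 CPM with GFP. Receptors summed to 648 and 635 CPM in positive and 250.4 and 265 CPM in negative cells of day 16.

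Markers of ectomesenchyme and of mesenchymal matrix moved with the genes that were higher in Msx1-positive cells. Of the 10 ectomesenchyme markers, 8 were higher and 1 lower with Dlx2. In positive cells 9 were higher at day 8 and all 10 at day 16. Over all genes 34.1%, 30.4% and 31.1% were higher in these comparisons, and 33% were lower with Dlx2. The 10 markers summed to 300.4 and 289 CPM with Dlx2 and 12.7 and 13.6 CPM with GFP, where up to 2 markers were at 0. The sums were 464 and 495 CPM in positive and 33.8 and 33.4 CPM in negative cells of day 8, and 1227 and 1220 CPM in positive and 179 and 189 CPM in negative cells of day 16. The 8 matrix markers were all higher in both positive fractions. At day 16 they summed to 18310 and 16890 CPM in positive and 621 and 692 CPM in negative cells. With Dlx2, 4 of the 6 tested matrix markers were higher and 1 was lower. No marker of either list was at 0 in a sorted library, and their part in the results was not tested.

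**Figure D3:**
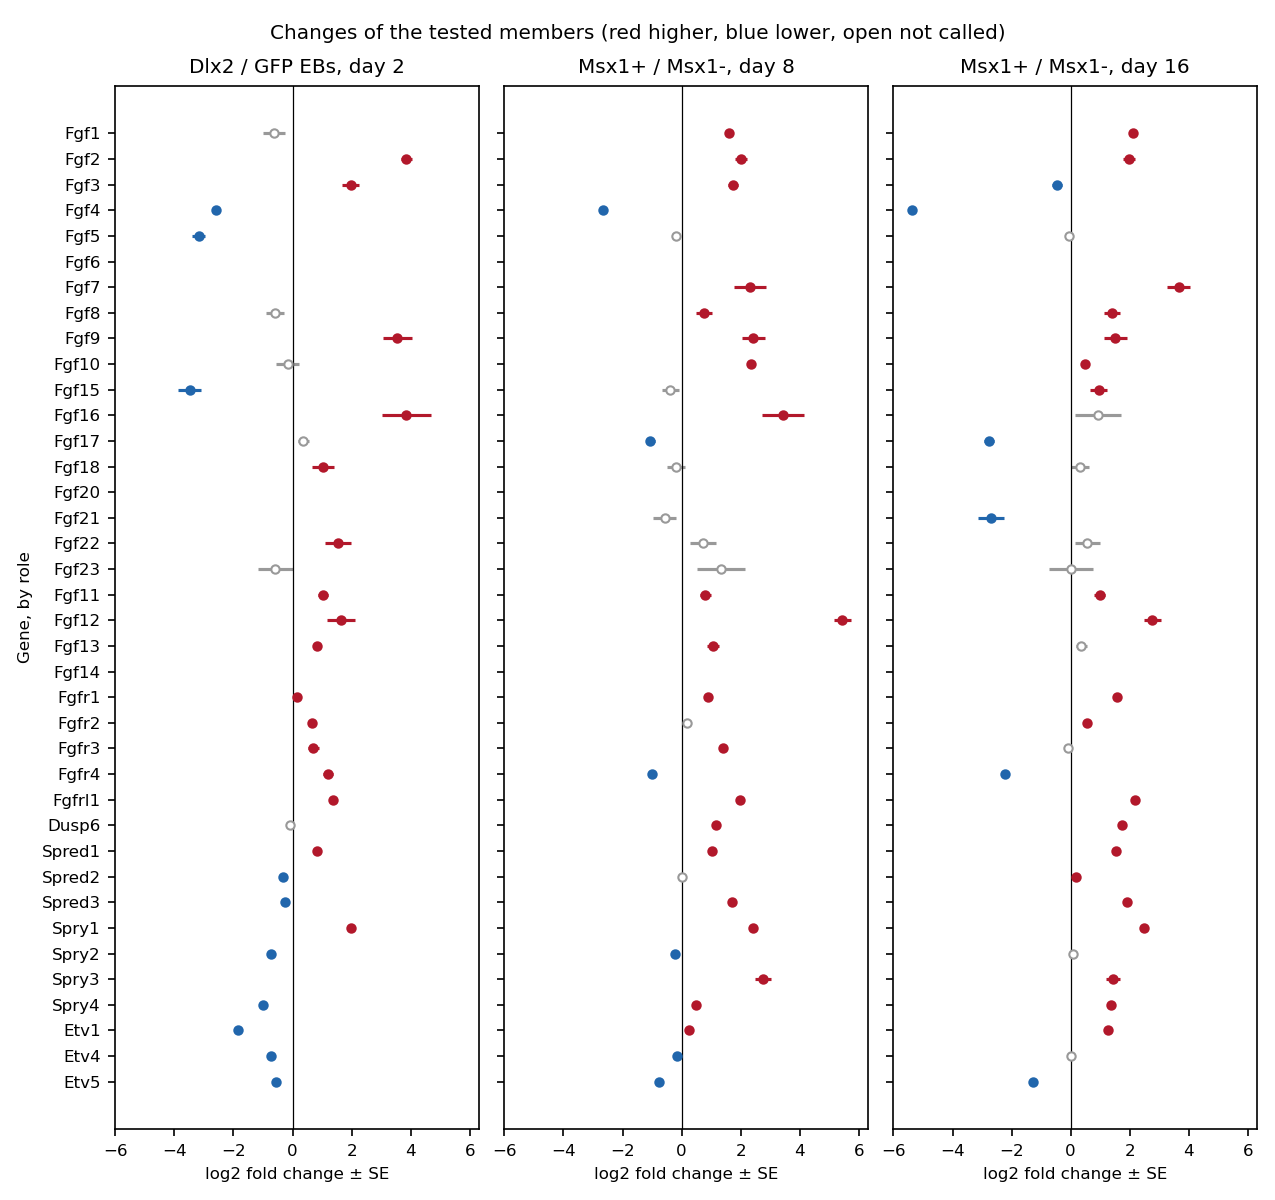
Log2 fold change ± SE of each tested member (rows, by role) for Dlx2 against GFP EBs at day 2 and for Msx1-positive against Msx1-negative cells at days 8 and 16; red points were called higher, blue lower, and open points were not called. All 5 receptors are red at day 2, all 3 ETS factors are blue there, and Fgf4 moves furthest down in the day-16 panel. Over all genes 34.1% were higher and 33% lower at day 2.

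**Figure D4:**
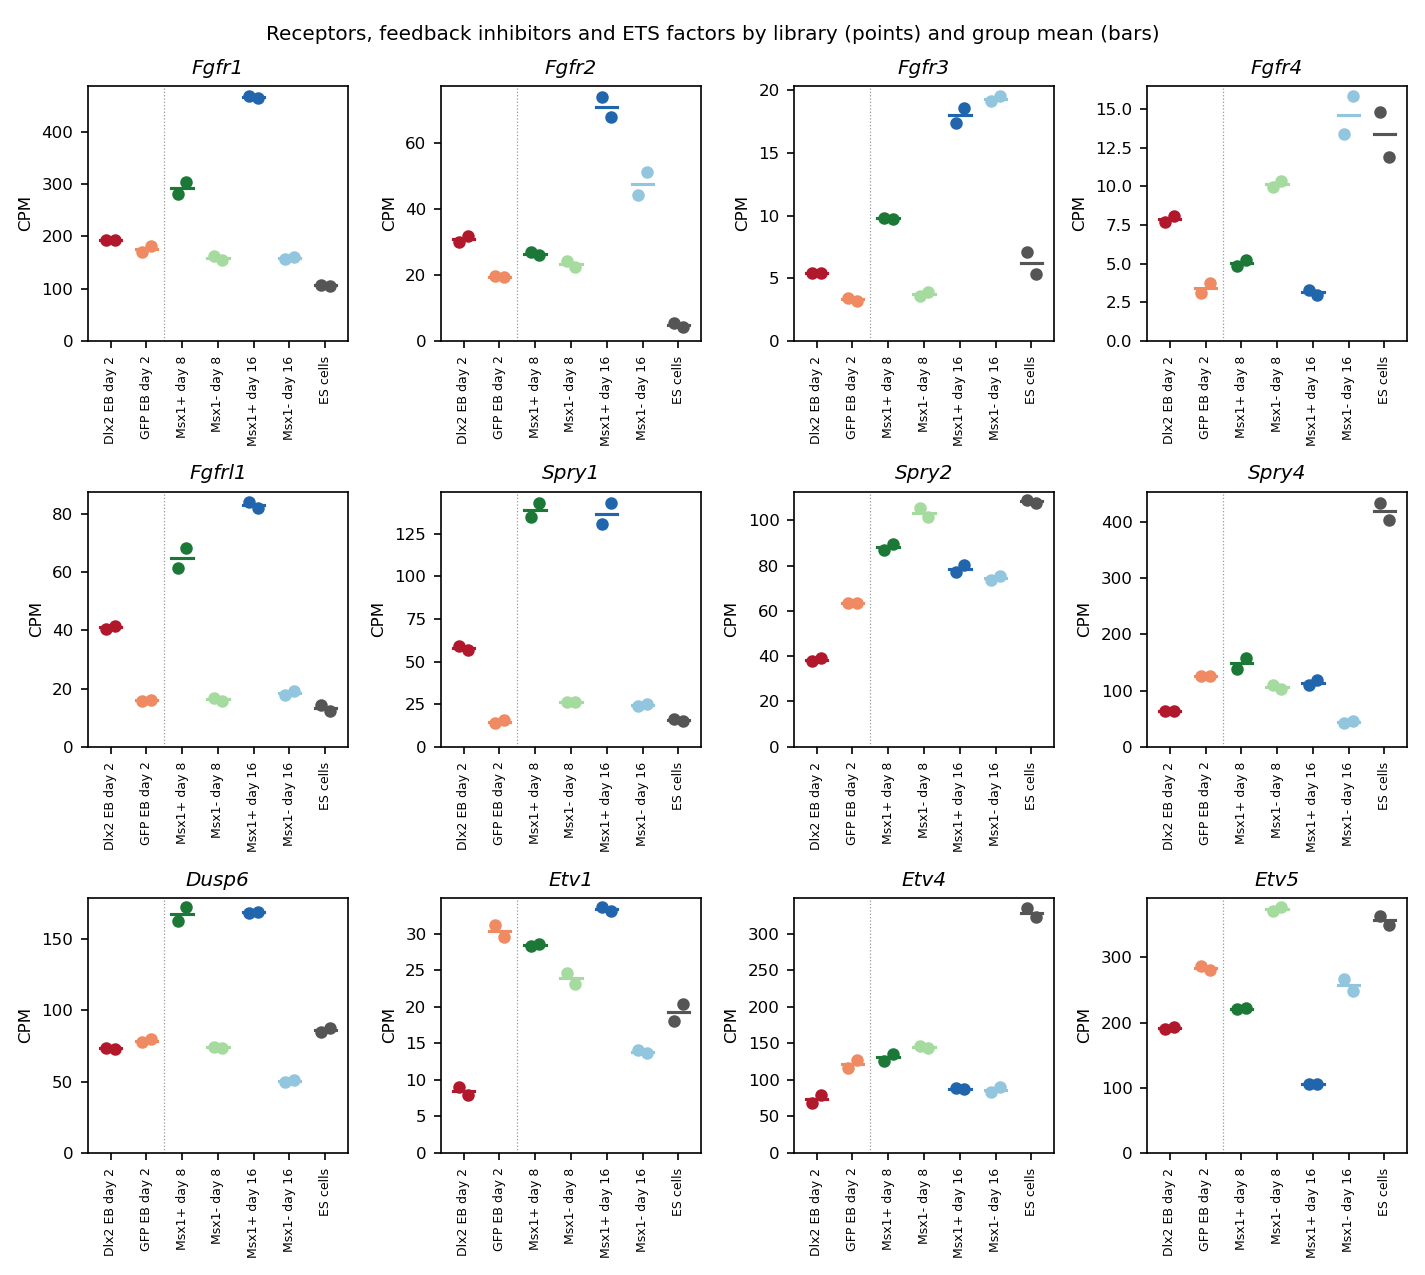
CPM of receptors, feedback inhibitors and ETS factors in each library (points) with group means (bars), groups on the x axis, and a dotted line between the separately scaled tables. Fgfrl1 and Spry1 stand high in Dlx2 EBs and in both Msx1-positive groups, and Spry4 and Etv4 stand highest in ES cells.

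Promoter sequence is shown for Spry1 and Fgfrl1, which were higher in all 3 comparisons, and for Fgf4, which was lower in all 3. Each line gives the 250 bases before the RefSeq transcription start on GRCm38.p6, 5′ to 3′ on the plus strand, in lower case with matches to CCGGAA, a core that ETS factors bind, in capitals.
Spry1, chr3:37639697-37639946: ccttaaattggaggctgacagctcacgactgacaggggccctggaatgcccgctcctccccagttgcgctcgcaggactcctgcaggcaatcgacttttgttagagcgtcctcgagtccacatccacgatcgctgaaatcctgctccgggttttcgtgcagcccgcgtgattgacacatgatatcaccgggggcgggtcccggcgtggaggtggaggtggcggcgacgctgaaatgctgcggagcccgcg
Fgfrl1, chr5:108693979-108694228: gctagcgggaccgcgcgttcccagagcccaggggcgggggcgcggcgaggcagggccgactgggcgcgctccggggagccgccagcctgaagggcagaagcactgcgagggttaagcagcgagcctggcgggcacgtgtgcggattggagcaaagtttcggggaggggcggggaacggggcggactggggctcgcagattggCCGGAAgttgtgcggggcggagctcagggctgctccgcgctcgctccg
Fgf4, chr7:144861136-144861385: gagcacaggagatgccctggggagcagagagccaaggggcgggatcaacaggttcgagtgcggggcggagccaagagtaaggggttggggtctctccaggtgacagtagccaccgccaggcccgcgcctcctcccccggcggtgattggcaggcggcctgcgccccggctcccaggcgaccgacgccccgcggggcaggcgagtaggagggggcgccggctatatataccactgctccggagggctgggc
Of these windows that of Fgfrl1 holds the core once and the others hold none. Those of Fgf4 and Fgfrl1 lie inside the annotated genes, which start further upstream, at 144847367 and 108692382. The exon lengths behind the levels per kilobase follow that annotation and not the RefSeq starts. RefSeq windows were given for 28 member genes. CCGGAA or its reverse complement TTCCGG was found in 4 of their 37 windows (those of Fgf5, Fgf12, Fgfr4 and Fgfrl1), next to 3952 of 32851 mouse promoter windows (12%). The homeodomain core TAATTA, its own reverse complement, was in none of the member windows and in 1590 (4.84%) of all. A match only describes these letters, and binding was not measured. Exons of Gm42922 overlap those of Spry1 on the other strand, and Gm42922 averaged 0.147 CPM in positive and 0.0266 CPM in negative cells of day 8.

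Whether the fraction difference changed between days 8 and 16 was tested directly, as the Msx1 effect at day 16 minus that at day 8. It changed for 19 of 35 members, upward for 9 and downward for 10, with 28.6% of all genes called (10.3% upward, 18.3% downward). Fgf4 (log2 fold change -2.71 ± 0.10, adjusted p = 1.16e-10), Fgf12 (log2 fold change -2.68 ± 0.44, adjusted p = 0.000359) and Fgf3 (log2 fold change -2.21 ± 0.23, adjusted p = 6.08e-06) had the largest downward changes. Among the receptors Fgfr3 (log2 fold change -1.50 ± 0.15, adjusted p = 2.79e-06) and Fgfr4 (log2 fold change -1.22 ± 0.19, adjusted p = 0.000220) moved down and Fgfr1 (log2 fold change 0.68 ± 0.08, adjusted p = 2.05e-05) moved up. Upward changes were also found for Etv1 (log2 fold change 1.02 ± 0.11, adjusted p = 6.04e-06), Spry4 (log2 fold change 0.89 ± 0.11, adjusted p = 1.79e-05), Dusp6 (log2 fold change 0.57 ± 0.08, adjusted p = 7.02e-05) and Spred1 (log2 fold change 0.50 ± 0.08, adjusted p = 0.000320). No such change was called for Spry1 (log2 fold change 0.08 ± 0.09, adjusted p = 0.569), Fgfrl1 (log2 fold change 0.17 ± 0.11, adjusted p = 0.256) or Fgf2 (log2 fold change -0.03 ± 0.28, adjusted p = 0.959). With scaling by library size alone, which puts the median of all genes at -0.28 in place of -0.10, 5 members moved upward and 11 downward, and 15.5% of all calls were upward, against 35.9%.

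**Figure D5:**
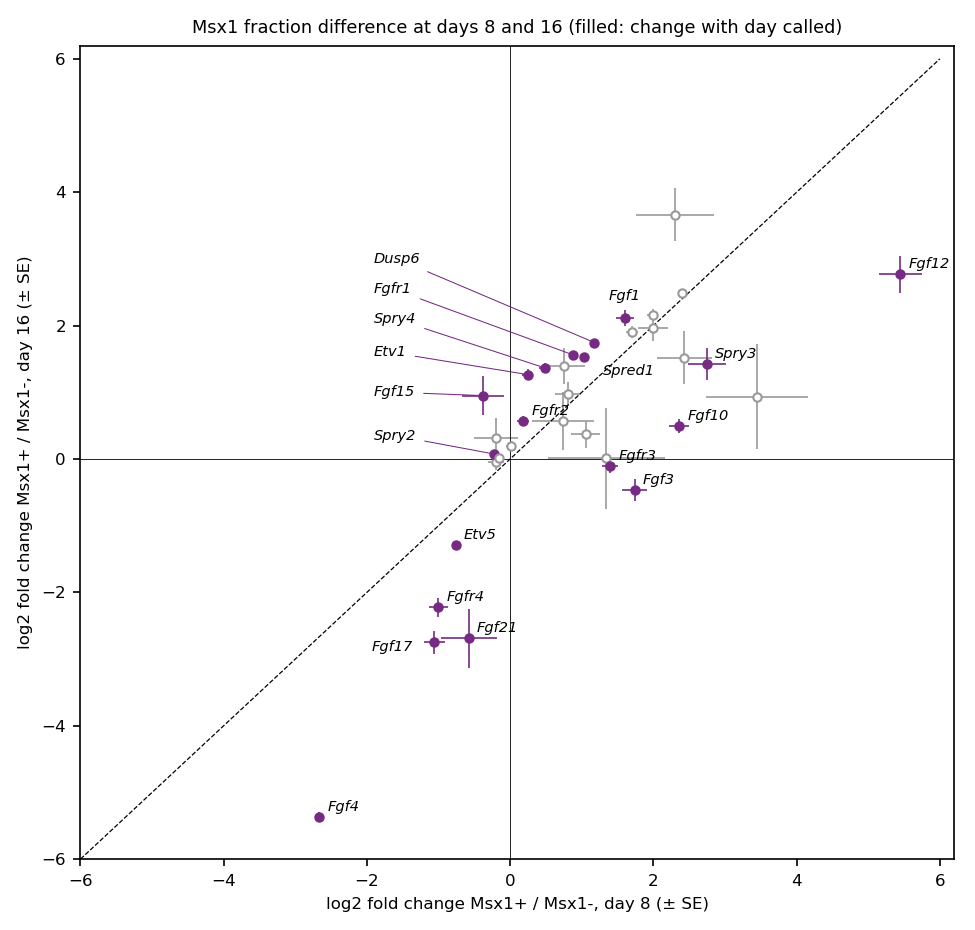
Msx1-positive against Msx1-negative log2 fold change ± SE at day 8 (x axis) and day 16 (y axis) for the 35 tested members; the dashed line marks equal values, and filled, named points changed with day at an adjusted p below 0.05. Fgf4 lies far below the line, Fgf12, Fgf10, Fgf3 and Spry3 lie below it on the right, and Dusp6, Fgfr1 and Etv1 lie above it.

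Within the Msx1-positive fraction, 11 members were higher and 13 lower at day 16 than at day 8, with 45.9% of all genes called (21.1% higher, 24.8% lower). The mesenchymal ligands Fgf7 (log2 fold change 3.69 ± 0.39, adjusted p = 1.54e-05) and Fgf10 (log2 fold change 1.48 ± 0.11, adjusted p = 4.99e-08) and the receptor gene Fgfr2 (log2 fold change 1.42 ± 0.08, adjusted p = 3.05e-09) were higher at day 16. Fgf4 (log2 fold change -3.56 ± 0.08, adjusted p = 2.12e-13), Fgf17 (log2 fold change -1.62 ± 0.17, adjusted p = 1.56e-06), Fgf12 (log2 fold change -1.60 ± 0.22, adjusted p = 2.51e-05) and Etv5 (log2 fold change -1.07 ± 0.06, adjusted p = 9.59e-10) were lower. With scaling by library size alone 34.7% of all calls were higher, against 46.0%, and members split 8 to 14. Spry1 (-0.02 ± 0.06) and Spred1 (0.03 ± 0.06) were not called between these days. In the Msx1-negative fraction 9 were higher and 9 lower, with 37.6% of all genes called (19.7% higher, 17.8% lower). Fgf10 (log2 fold change 3.34 ± 0.13, adjusted p = 1.09e-10) and Fgfr3 (log2 fold change 2.38 ± 0.11, adjusted p = 5.38e-10) were higher at day 16, and Spry4 (log2 fold change -1.27 ± 0.08, adjusted p = 8.34e-09) and Fgf4 (log2 fold change -0.85 ± 0.06, adjusted p = 2.90e-08) were lower. With scaling by library size alone 62.9% of all calls were higher, against 52.5%, and members split 11 to 9. Without the second negative library of day 16, the higher calls of Fgf1, Fgf7, Fgf12 and Fgfr4 were lost, and fewer genes were called higher over the whole table too.

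Against the libraries labelled ES, 22 members were higher and 8 lower in positive cells of day 16, with 71% of all genes called (37.3% higher, 33.7% lower). In negative cells of day 16, 16 were higher and 11 lower, with 53% called (28.5% higher, 24.5% lower). In positive cells of day 8, 21 were higher and 7 lower, with 61.5% called (34.6% higher, 26.9% lower). In negative cells of day 8, 12 were higher and 10 lower, with 33.6% called (19% higher, 14.5% lower). These comparisons share the ES libraries and are given side by side.

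Spry4 was lower than in ES cells in every sorted group, with log2 fold changes of -1.50 ± 0.07 in positive and -1.98 ± 0.07 in negative cells of day 8, and -1.88 ± 0.07 in positive and -3.25 ± 0.08 in negative cells of day 16. Etv4 was lower likewise, with log2 fold changes of -1.33 ± 0.06 in positive and -1.18 ± 0.06 in negative cells of day 8, and -1.91 ± 0.06 in positive and -1.93 ± 0.06 in negative cells of day 16. Fgfr2 was higher in every sorted group, with log2 fold changes of 2.47 ± 0.11 in positive and 2.29 ± 0.11 in negative cells of day 8, and 3.89 ± 0.11 in positive and 3.32 ± 0.11 in negative cells of day 16. For Fgf7, with 2 counts in the ES libraries, the ratio was 637 in positive cells of day 16 (95% exact counting interval 176 to 5270). Both counts lay in the first ES library, and without the second the fitted difference was log2 8.25, adjusted p = 7.90e-06. Fgf16 had no count in ES cells and was at least 35.7-fold higher in positive cells of day 8; the bound takes 3 counts for both ES libraries together.

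Other genes of the pathway were counted in lists. Of 20 tested co-receptors, heparan sulfate genes and ligand carriers, 14 were higher and 3 lower with Dlx2, and 16 were higher and 3 lower in positive cells at day 8 and again at day 16. Over all genes 34.1% were higher and 33% lower with Dlx2, 30.4% and 24.3% in positive cells of day 8, and 31.1% and 31% at day 16. Kl, the klotho co-receptor of endocrine FGFs, averaged 11.3 CPM with Dlx2 and 0.830 CPM with GFP (log2 fold change 3.76 ± 0.21, adjusted p = 5.58e-13). Gpc3, a glypican heparan sulfate carrier, averaged 457 CPM with Dlx2 and 33.2 CPM with GFP (log2 fold change 3.78 ± 0.06, adjusted p = 1.15e-22). Flrt2, a membrane protein that binds FGF receptors, averaged 140 CPM in positive and 16.6 CPM in negative cells of day 16 (log2 fold change 3.08 ± 0.09, adjusted p = 8.20e-13). Klb, the co-receptor of Fgf21 and Fgf15, averaged 0.986 CPM in positive and 12.2 CPM in negative cells there (log2 fold change -3.63 ± 0.28, adjusted p = 4.51e-08), and the ligand carrier Fgfbp1 was lower too (log2 fold change -2.87 ± 0.18, adjusted p = 3.76e-09). Klb was higher with Dlx2 at day 2 (log2 fold change 2.58 ± 0.71, adjusted p = 0.00312), but it averaged below 1 CPM in both EB groups.

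Of 22 adaptors and kinases of the RAS-ERK cascade, 10 were higher and 10 lower with Dlx2, 9 and 8 in positive cells of day 8, and 9 and 5 at day 16. In either direction 67.2%, 54.7% and 62.1% of all genes were called in these comparisons. Their median log2 changes were 0.08, 0.05 and 0.08. Other ERK feedback and response genes were 5 higher and 5 lower of 14 tested with Dlx2. In positive cells they were 8 and 3 of 13 at day 8, and 9 and 2 of 13 at day 16. Beside both lists, 34.1% of all genes were higher and 33% lower with Dlx2. In positive cells these shares were 30.4% and 24.3% at day 8, and 31.1% and 31% at day 16. With Dlx2, the immediate early genes Egr2 (log2 fold change 5.05 ± 0.35, adjusted p = 2.04e-11) and Fos (log2 fold change 2.52 ± 0.15, adjusted p = 2.06e-12) were higher, while Ier3 (log2 fold change -2.72 ± 0.14, adjusted p = 1.02e-13) and Myc (log2 fold change -1.42 ± 0.08, adjusted p = 3.65e-13) were lower. Ier3 was higher in positive cells of day 16 (log2 fold change 0.95 ± 0.10, adjusted p = 7.35e-07) and of day 8 (log2 fold change 0.76 ± 0.10, adjusted p = 1.51e-05). Myc was higher in those of day 16 (log2 fold change 0.25 ± 0.07, adjusted p = 0.00844) and lower in those of day 8 (log2 fold change -0.68 ± 0.07, adjusted p = 1.34e-06). Ccnd1, a cyclin that ERK induces, was lower with Dlx2 (log2 fold change -1.29 ± 0.05, adjusted p = 1.52e-15) and in positive cells of day 8 (log2 fold change -0.15 ± 0.06, adjusted p = 0.0369). It was higher in positive cells of day 16, at 258 CPM in positive and 46.8 CPM in negative cells (log2 fold change 2.46 ± 0.06, adjusted p = 9.60e-14). Dusp9, an ERK phosphatase of ES cells, was lower there (log2 fold change -1.37 ± 0.06, adjusted p = 4.28e-11) but higher in positive cells of day 8 (log2 fold change 0.47 ± 0.06, adjusted p = 6.16e-06) and with Dlx2 (log2 fold change 0.22 ± 0.05, adjusted p = 0.000577).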

How the data were processed

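The deposited values are raw counts per gene made by the authors. HISAT2 2.1.0, fastp 0.20.0, DESeq2 1.18.1 and the build GRCm38 stand in the submitters' processing notes, with no order or role; for the counting program and its annotation, the sources used here give no name. Libraries were made with an unstranded kit, per the labels' protocols. The 4 uninduced samples of the labels were not analysed here.

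The day-2 table and the table of sorted and ES cells were scaled and fitted separately in R 4.3.3 with edgeR 4.0.16 (TMM factors, filterByExpr, robust quasi-likelihood fit, Benjamini-Hochberg adjustment). Tested were 18650 genes at day 2, 22294 for the 8 sorted libraries and 22504 with ES cells. SE is the log2 fold change divided by the root of F and may be too small for low counts. Alternatives were RLE or library-size scaling, DESeq2 1.42.0, other filters, leaving out each library, a replicate block and, chosen after seeing the data, halved counts and a crossed block. Scripts were checked on simulated counts. In the table of sorted and ES cells, counts from 1 to 20 were mostly even (60.9% to 66.3% of them per library, against 45.2% to 48.5% at day 2), so counting intervals there are too narrow.

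The members and lists were chosen with earlier results of these data known. Values per library are given for members called at an absolute log2 fold change of 1 or more with a group mean of 1 CPM. A call in the day-2, day-8 or day-16 comparison was enough. Other pathway genes were named where a comparison called them with a group mean of 1 CPM. They had to be among its largest changes over the pathway lists together (up to 5 per direction). Their values in other comparisons are given whatever their rank or level. Fold bounds use a floor of 3 counts over the group, and intervals are 95% exact, both for counting error only.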

Additional observations from a re-analysis of the deposited data

Results flagged for a closer look

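For 19 members the difference between Msx1-positive and Msx1-negative cells was not the same at days 16 and 8 by edgeR's test of the interaction (Benjamini-Hochberg adjusted p below 0.05 over all genes tested; 2 libraries per group, log2 difference day 16 minus day 8). The positive fraction gained on the negative one for Fgf15 (1.33), Etv1 (1.02), Spry4 (0.89), Fgfr1 (0.68), Dusp6 (0.57), Fgf1 (0.50), Spred1 (0.50), Fgfr2 (0.39) and Spry2 (0.30). It lost ground for Fgf4 (-2.71), Fgf12 (-2.68), Fgf3 (-2.21), Fgf21 (-2.11), Fgf10 (-1.87), Fgf17 (-1.69), Fgfr3 (-1.50), Spry3 (-1.32), Fgfr4 (-1.22) and Etv5 (-0.53). The direction of the fraction difference itself was opposite at the 2 days, with both called, for Fgf3 alone. The calls for Fgf1, Fgf15, Fgf21, Fgfr2, Spry2 and Spry3 were lost when 1 of the 8 libraries was left out, among them Spry2 without the first negative library of day 8 (log2 0.30, adjusted p = 0.0542) and Spry3 without the first positive library of day 8 (log2 -1.16, adjusted p = 0.0560). Pluripotency markers moved too: all 9 had a lower interaction value, beside 18.3% of all genes, and the part of these markers in the result was not tested.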

How the results depend on the processing

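Of all recomputed values 3903 were counted as unchanged, 131 lost a call, 43 gained one and 1 reversed. A sign that turned was counted as reversed only where the value was called in either fit. Uncalled values whose sign turned are among the unchanged, such as Dusp6 at day 2 (log2 -0.138 to 0.073 over the alternatives). The reversed one was Etv4 at day 8 with library-size scaling (log2 0.0017). With that scaling 5 members, not 9, had an upward change of the Msx1 effect. Leaving out 1 library gave 5 to 9 members higher at day 16 than at day 8 in Msx1-negative cells, 12 to 16 higher and 9 to 10 lower with Dlx2, 19 to 20 higher and 5 to 6 lower in positive cells of day 8, and 18 to 20 higher and 5 to 6 lower at day 16. With 1 library left in an arm, it is assumed to vary like the others. In each of these fits fewer genes were called over the whole table too, so the loss of calls is not particular to the members. A replicate block left the counts of called members as they were, except 8 in place of 9 upward interactions; the numbers were not shown to pair samples (correlations of 0.0829 at day 2 and, between fractions, -0.0744 at day 16 and -0.0139 at day 8; over all pairs of groups they ran from -0.171 to 0.348, the highest between positive cells of day 8 and negative cells of day 16). A crossed block gave 10 higher and 13 lower between days in positive cells, where the correlation was -0.171. At day 2 the numbers are those of the column names, and the block left 16 higher and 10 lower. Low counts limit Fgf7, Fgf9, Fgf12, Fgf16, Fgf21, Fgf22 and Spry3.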
